A study of Mus musculus with 8 samples.

Results

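Genes of 12 families of transcription factors with roles in development and cell lineage were examined in alveolar type 2 (AT2) cells, which make lung surfactant, with and without RhoA. The genes were taken by a pattern of symbols, set with earlier results of these data known, and 22 of the 812 genes in the deposited table were found. *Foxj1*, which also fits the pattern, was left out. It is on the list of ciliated markers and was lower, at 28.3 FPKM in WT and 9.91 FPKM in RhoA-deficient cells. They belong to the C/EBP, nuclear receptor, forkhead, T-box, SOX, GATA, ETS, bHLH, KLF, ZBTB and ZFP families, and none to the ID family. A symbol does not show a role in lineage, and for some of the zinc finger genes such a role is not well known.

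The cells were primary AT2 cells of C57BL/6 mice of 2 genotypes. The WT group carried floxed *RhoA* alleles alone (*RhoA* fl/fl), and the RhoA-deficient group carried them with *Sftpc-cre*, which expresses Cre under the *Sftpc* promoter and was made to delete *RhoA* in AT2 cells. The study reported the loss of RhoA protein in isolated AT2 cells by Western blot. In lung tissue it found *RhoA* deleted in AT2 cells and not deleted in basal cells or the central airways. *Sftpc* is highest in AT2 cells but is not restricted to them, and in which cells of these cultures *RhoA* was deleted was not checked here. *Rhoa* itself is not in the table. The trachea and airways were removed from the lungs. AT2 cells were then enriched by magnetic removal of cells with CD45, Sca-1 and other surface markers and by panning on IgG. Both groups were cultured with cockroach allergen extract (CRE, 50 μg/mL) over 16 hours, per the labels, so no untreated cells enter the comparison. The study's results instead describe the profiled cells as taken from allergen-exposed mice, and the sources do not settle whether the mice of these samples were exposed before the culture. There were 4 samples per genotype, and the labels do not say whether each was a separate mouse, nor the age or sex of the mice. The values are FPKM, fragments per kilobase of transcript scaled to library size, and the deposited table has 1 mean for each genotype. The spread between samples and the depth are therefore unknown, so no test between the genotypes could be run and no difference below is set against replicate error. Each gene of the table carries the authors' mark of a significant difference, so every gene in it was selected on this contrast. The 812 genes are many more than the study's text counts as differentially expressed, and the reason was not established here.

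Lineage transcription factors bind DNA and hold a cell in its identity, often by activating the genes of one lineage and repressing those of another. In the lung, C/EBPα and ETV5 act in AT2 cells, SOX2 marks the progenitors of the conducting airways, and TWIST1 and TBX18 are known from mesenchyme. SOX factors bind DNA through an HMG box, ETS factors through a winged helix-turn-helix that reads a GGAA core, and bHLH factors as dimers on E-boxes. RhoA is a small GTPase of the actin cytoskeleton, and actin dynamics are known to control transcription through SRF, which binds the CArG box.

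Of the 22 genes, 13 were higher and 9 were lower in RhoA-deficient AT2 cells. Among all 812 genes, 55.2% were higher and 44.8% were lower, so the balance of directions among the transcription factors lay near that of the whole table. All 4 ETS genes, both nuclear receptor genes and *Cebpa* were higher, whereas all 3 SOX genes, *Gata4* and *Tbx18* were lower. The forkhead, bHLH, KLF and ZFP families held genes of both directions. *Twist1* had the largest ratio, with a 28.2-fold lower FPKM in RhoA-deficient cells. As the difference in log2(FPKM + 1), RhoA-deficient minus WT, the range was -1.76 for *Twist1* to 1.56 for *Etv5*.

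**Figure D1:**
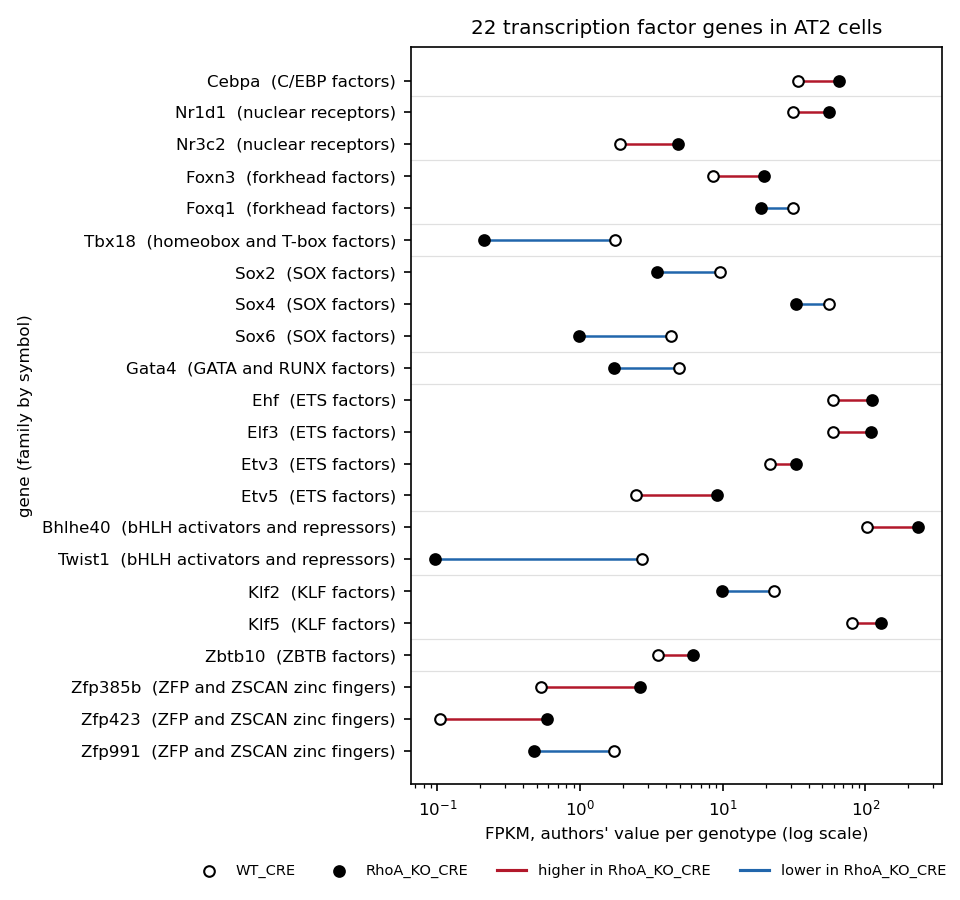
FPKM of the 22 transcription factor genes on a log axis, with the deposited value for WT as an open circle and for RhoA-deficient AT2 cells as a filled circle, joined by a red line where RhoA-deficient cells were higher and a blue line where they were lower. *Bhlhe40* has the highest values at 102 and 233 FPKM, and *Twist1* has the longest line, from 2.71 to 0.0960 FPKM.

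The stretches before the start sites of 4 genes are printed. *Twist1* and *Tbx18* were taken for the largest FPKM ratios among the lower genes. *Etv5* was taken for the largest difference in log2(FPKM + 1) among the higher genes, and *Etv3* for the single CACGTG found. The sequences are those of RefSeq on build GRCm38.p6. Each shows the 250 bases before the start, 5′ to 3′ on the gene's strand. Capitals mark the element CCAAT on either strand and the E-box CACGTG.
*Twist1*, plus strand, chr12:33957421-33957670: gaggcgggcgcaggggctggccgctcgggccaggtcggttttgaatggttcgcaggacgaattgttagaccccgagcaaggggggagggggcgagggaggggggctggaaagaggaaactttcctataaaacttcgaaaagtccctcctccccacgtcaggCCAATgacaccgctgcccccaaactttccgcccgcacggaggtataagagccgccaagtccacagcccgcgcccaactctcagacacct
*Tbx18*, minus strand, chr9:87731261-87731510: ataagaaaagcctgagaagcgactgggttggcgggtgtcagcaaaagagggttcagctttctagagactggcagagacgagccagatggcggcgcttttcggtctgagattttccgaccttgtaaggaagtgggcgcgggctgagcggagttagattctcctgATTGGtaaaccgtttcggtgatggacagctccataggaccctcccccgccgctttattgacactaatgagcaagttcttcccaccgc
*Etv5*, minus strand, chr16:22439571-22439820: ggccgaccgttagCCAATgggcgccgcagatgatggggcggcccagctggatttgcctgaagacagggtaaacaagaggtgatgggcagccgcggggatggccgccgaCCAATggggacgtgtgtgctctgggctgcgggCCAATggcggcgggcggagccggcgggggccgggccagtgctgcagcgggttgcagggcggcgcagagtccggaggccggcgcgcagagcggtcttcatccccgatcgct
*Etv3*, plus strand, chr3:87525328-87525577: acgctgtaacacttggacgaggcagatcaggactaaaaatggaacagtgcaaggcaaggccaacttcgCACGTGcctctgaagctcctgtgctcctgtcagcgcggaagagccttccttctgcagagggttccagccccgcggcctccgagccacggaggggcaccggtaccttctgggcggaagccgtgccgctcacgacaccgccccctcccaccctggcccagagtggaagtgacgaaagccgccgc

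CCAAT is the element that NF-Y reads, and it begins 89 bases before the start in *Twist1*. In *Tbx18* it lies 87 bases before the start, on the opposite strand. *Etv5* holds it at 237, 142 and 110 bases before this start, the first of the 2 RefSeq starts of the gene. CACGTG, an E-box that *Bhlhe40* and other bHLH factors bind, begins 182 bases before the start of *Etv3*.

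RefSeq windows of 300 bases, 250 before to 50 after a start, were at hand for 15 of the 22 genes, 25 windows in all. CCAAT on either strand was present in 11 of the 25 windows, from 8 of these 15 genes, and in 37.4% of all 32851 windows. AGGTCA, the half-site of nuclear receptors, was present in 6 of the 25 windows, from 5 genes, again on either strand. Of all windows, 16.3% held it. CACGTG was present in 1 of the 25 windows, that of *Etv3*, and in 7.15% of all windows. The wider E-box CANNTG, which includes CACGTG, was present in 20 of the 25 windows, from 13 genes. It was present in 72.3% of all windows. The CArG box of SRF was present in 0 of the 25 windows and in 1.63% of all windows. These are matches of letters in short windows, and a gene with several starts had more windows in which to match.

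The factors best known from AT2 cells, *Cebpa* and *Etv5*, were both higher. *Cebpa* encodes C/EBPα, a leucine zipper factor of AT2 maturation and lipid metabolism. WT cells had 33.5 FPKM and RhoA-deficient cells 65.5 FPKM, a 1.96-fold higher value. *Etv5* encodes an ETS factor that acts downstream of FGF and Ras signaling and sustains AT2 identity. The gene was at 2.45 FPKM in WT and at 9.14 FPKM in RhoA-deficient cells, 3.73-fold higher. *Etv5* is one of the 15 genes on the list of AT2 markers, of which 14 were in the table and all 14 were higher. The listed marker missing from the table was *Sftpc*, the gene whose promoter drives Cre here. The summed FPKM of these 14 markers was 6082 in WT against 13064 in RhoA-deficient cells. *Lyz2* alone gave the largest part of both sums, at 3358 and 6561 FPKM. The part of the 14 markers in the higher values of *Cebpa* and *Etv5* was not tested. In bulk samples such as these, fewer cells of a type and less RNA per cell cannot be told apart.

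The other ETS genes were more abundant and differed by less. *Ehf* and *Elf3* encode ETS factors restricted to epithelial cells. *Ehf* was at 59.3 FPKM in WT and at 111 FPKM in RhoA-deficient cells, 1.88-fold higher. *Elf3* was at 59.4 and 110 FPKM, 1.85-fold higher. The levels of these 2 genes in each genotype lay within 2 FPKM of each other. *Etv3*, an ETS repressor of proliferation, was at 21.5 and 32.6 FPKM, 1.52-fold higher, which was the smallest ratio of the 22 genes. In log2(FPKM + 1) the 4 ETS genes were higher by 0.58 to 1.56, with a median of 0.89, while the median over the 448 genes of the table that were higher was 0.94. The symbol rule does not take all ETS genes. Of those on the list of other transcription factor genes, *Ets2* was higher at 64.1 and 106 FPKM, and *Fli1*, an ETS factor of endothelial and blood cells, was lower at 2.88 and 0.817 FPKM. The direction within the ETS family was therefore not uniform in the table.

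*Klf5* and *Klf2* are zinc finger factors of the KLF family with opposite directions here. *Klf5*, which acts in epithelial growth and in alveolar development, was at 81.1 FPKM in WT and 129 FPKM in RhoA-deficient cells, 1.58-fold higher. *Klf2*, known for endothelial responses to flow and for the quiescence of T cells, was at 23.0 and 9.86 FPKM, 2.33-fold lower. Beside *Klf2*, the endothelial marker *Pecam1* was lower at 10.6 and 5.95 FPKM, the only one of 10 endothelial markers in the table. All 5 lymphocyte markers in the table, of 13 listed, were lower as well, with a summed FPKM of 56.7 in WT against 15.3 in RhoA-deficient cells. The isolation was meant to remove CD45+ cells and cells with the other surface markers named above. The part of remaining lymphocytes or endothelial cells in the value of *Klf2* was not tested.

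Nuclear receptors are transcription factors that bind small lipophilic ligands. *Nr1d1* encodes REV-ERBα, a heme-binding repressor of the circadian clock. It was at 31.1 FPKM in WT and at 55.6 FPKM in RhoA-deficient cells, 1.79-fold higher. *Nr3c2* encodes the mineralocorticoid receptor, which controls sodium transport in epithelia. It was at 1.92 and 4.88 FPKM, 2.54-fold higher. *Bhlhe40*, a bHLH repressor that also acts on the clock, was the most abundant of the 22 genes in both genotypes, at 102 FPKM in WT and 233 FPKM in RhoA-deficient cells, 2.28-fold higher. Of the 25 genes on the list of circadian clock genes, 3 were in the table, *Nr1d1*, *Bhlhe40* and *Per1*, and all 3 were higher. *Per1*, a period repressor of the clock, was at 7.41 and 15.1 FPKM. The time of day at which the samples were collected is not given in the sources used here.

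The forkhead genes differed in direction. *Foxn3*, a transcriptional repressor with a role in cell cycle checkpoints, was at 8.56 FPKM in WT and 19.6 FPKM in RhoA-deficient cells, 2.29-fold higher. *Foxq1*, a forkhead factor of epithelial cells, was at 31.2 and 18.4 FPKM, 1.69-fold lower. Exons of *Foxq1* share 66.1% of their bases with *A530084C06Rik* on the opposite strand, and reads of the pair can be told apart only if strand entered the estimates, which is not stated, so the value of *Foxq1* is uncertain.

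All 3 SOX genes were lower. *Sox2* specifies the progenitors of the conducting airways and marks their epithelium. It was at 9.52 FPKM in WT and 3.49 FPKM in RhoA-deficient cells, 2.73-fold lower. *Sox4*, a factor of progenitor cells in many tissues, was the most abundant of the 9 lower genes, at 55.7 and 32.7 FPKM, 1.70-fold lower. *Sox6*, a SOX factor without a transactivation domain that is known from cartilage, muscle and erythroid cells, was at 4.35 and 0.989 FPKM, 4.40-fold lower. *Sox6* thus had the largest ratio of the 3 SOX genes and the lowest level.

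Markers of airway cells were lower beside *Sox2*. Of 12 ciliated markers, 8 were in the table and all 8 were lower, with a summed FPKM of 142 in WT against 56.0 in RhoA-deficient cells. Of 8 club markers, *Scgb1a1* and *Krt15* were in the table and both were lower, with a summed FPKM of 27288 and 9205, nearly all of it from *Scgb1a1*. None of the markers in the table was at 0 in either genotype. The trachea and airways were removed before the isolation, and the part of remaining airway cells in the lower value of *Sox2* was not tested. The locus that the table gives for *Sox2* spans 578350 bases against 2057 for the gene itself, although no exonic base of *Sox2* is shared with another gene in GENCODE M21. The locus in the table was also longer than the gene for *Tbx18*, at 29291 against 28461 bases, and for 5 higher genes: *Bhlhe40*, at 89887 against 6297, *Elf3*, at 35524 against 4994, *Nr1d1*, at 34696 against 7402, *Nr3c2*, at 639787 against 345571, and *Cebpa*, at 3885 against 2636. Whether reads from outside these 7 genes entered their values was not tested, and without them 8 genes were higher and 7 lower. Exons of *Sox4* share 54.6% of their bases with *Gm26735* on the opposite strand, and its value is uncertain in the same way as that of *Foxq1*.

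*Twist1*, *Tbx18* and *Gata4*, known from mesoderm and its derivatives, were lower and low in level in both genotypes. *Twist1*, a bHLH factor of mesoderm that promotes the passage of epithelial cells to a mesenchymal state, was at 2.71 FPKM in WT and 0.0960 FPKM in RhoA-deficient cells. By the FPKM ratio it ranked 2 of the 364 lower genes of the table, and by log2(FPKM + 1) it ranked 28. The gene lies on chromosome 12 of GRCm38 from 33957671 to 33959829, and its exons overlap no other gene. *Tbx18*, a T-box factor of the epicardium and of mural and other mesenchymal cells, was at 1.77 and 0.213 FPKM, 8.33-fold lower. Exons of *Tbx18* share 20.6% of their bases with *D030062O11Rik* on the opposite strand. *Gata4*, a zinc finger factor of heart and foregut endoderm, was at 4.92 and 1.72 FPKM, 2.86-fold lower.

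Of the 22 genes on the list of mesenchymal transition, 5 were in the table and all 5 were lower, *Twist1* among them. *Zeb1*, a repressor of epithelial genes, was at 5.14 and 2.65 FPKM, and *Cdh2*, which encodes N-cadherin, at 2.79 and 1.07 FPKM. *Fn1*, the fibronectin gene, was at 128 and 77.1 FPKM. *Acta2*, which encodes smooth muscle actin, was at 65.5 and 33.9 FPKM. All 5 fibroblast markers in the table, of 12 listed, were lower, and their summed FPKM was 207 in WT against 81.9 in RhoA-deficient cells. *Acta2* is on both lists. In log2(FPKM + 1) the 5 fibroblast markers differed by -0.93 to -1.75, with a median of -1.27, and *Twist1* by -1.76, a scale that limits the difference of a gene as low as *Twist1*. By the FPKM ratio the 5 markers were 1.93-fold to 4.52-fold lower and *Twist1* 28.2-fold lower, which rests on a value near 0. The part of mesenchymal cells in the lower values of *Twist1*, *Tbx18* and *Gata4* was not tested.

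The ZBTB and ZFP genes had mean values under 5 FPKM over both genotypes. *Zbtb10*, which encodes a BTB zinc finger repressor, was at 3.52 FPKM in WT and 6.18 FPKM in RhoA-deficient cells, 1.75-fold higher. *Zfp423*, a factor of adipocyte and neural progenitors that cooperates with SMADs in BMP signaling, was at 0.104 and 0.588 FPKM. Its ratio of 5.66 was the largest of the 13 higher genes, but it was below 1 FPKM in both genotypes, and its mean over both was the lowest of the 22. *Zfp385b* was at 0.530 and 2.62 FPKM, 4.95-fold higher. *Zfp991* was at 1.73 and 0.473 FPKM, 3.67-fold lower. *Zfp991* belongs to a large family of related zinc finger genes, between which reads could be divided, so its value is uncertain.

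Set against a threshold of 2-fold on log2(FPKM + 1), 5 genes were higher and 6 were lower. Of all genes in the table, 23.6% were at least 2-fold higher and 28.4% at least 2-fold lower on this scale. The 5 higher genes were *Etv5*, *Zfp385b*, *Bhlhe40*, *Foxn3* and *Nr3c2*, at 1.56, 1.24, 1.18, 1.11 and 1.01. The 6 lower genes were *Twist1*, *Sox6*, *Sox2*, *Tbx18*, *Klf2* and *Gata4*, at -1.76, -1.43, -1.23, -1.19, -1.14 and -1.12. With a mean FPKM of at least 5, the counts past 2-fold were 3 higher and 2 lower. Without the 7 genes whose locus in the table is longer than the gene, they were 3 higher and 4 lower. The median over the 13 higher genes was 0.90 against 0.94 over the table's higher genes, and the median over the 9 lower genes was -1.14 against -1.14 over the table's lower genes. In size of difference the transcription factor genes thus lay near the rest of the table.

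**Figure D2:**
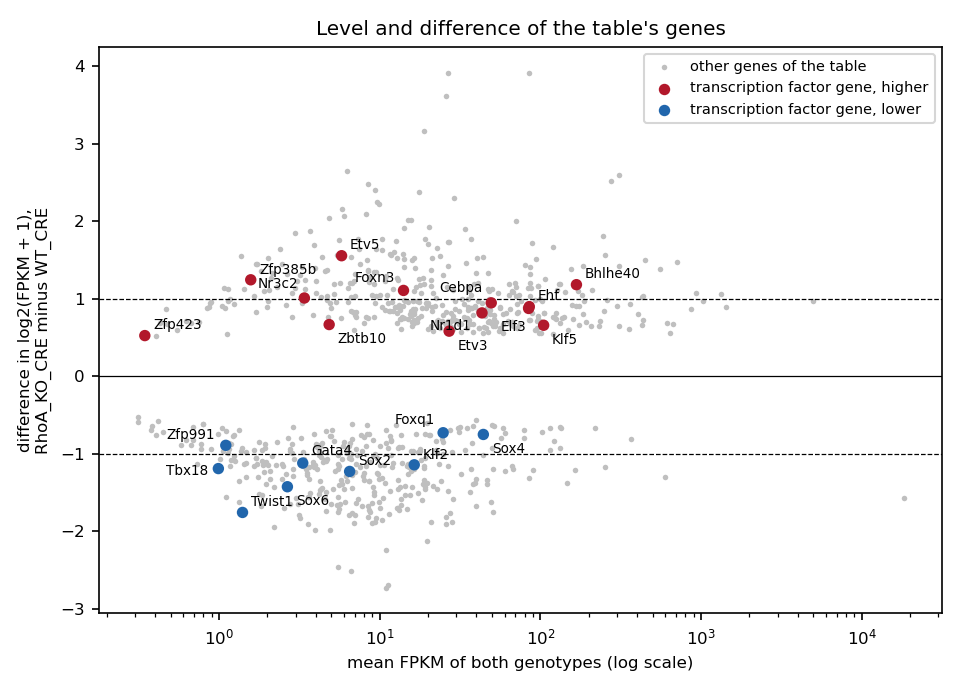
Difference in log2(FPKM + 1), RhoA-deficient minus WT, against the mean FPKM of both genotypes on a log axis, with each gene of the table in gray and the 22 transcription factor genes in red (higher) or blue (lower). Dashed lines mark 2-fold, past which lie 5 of the red and 6 of the blue genes. No gene of the table lies near 0, since each was selected on this contrast.

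The lower genes had the lower median level, although both directions held genes of low and of high level. The median of the mean FPKM was 27.1 over the 13 higher genes and 3.32 over the 9 lower genes, and it was 24.5 and 6.99 over the higher and lower genes of the table. Of the 11 genes with a mean FPKM of 10 or more, 8 were higher (72.7%), as were 69.9% of all such genes in the table. Of the 11 genes under 10 FPKM, 5 were higher (45.5%), as were 35.4% of all such genes. The 5 most abundant, *Bhlhe40*, *Klf5*, *Ehf*, *Elf3* and *Cebpa*, were all higher. An FPKM under 1 was found for 5 of the 22 genes in RhoA-deficient cells, against 10.3% of the table, and for 2 genes in WT, against 5.54%.

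The size of the difference depended on the pseudocount mainly for the low genes. Without a pseudocount, the log2 ratio was -4.82 for *Twist1*, -3.06 for *Tbx18* and 2.50 for *Zfp423*. With the pseudocount of 1, these were -1.76, -1.19 and 0.52. For *Klf5* the values were 0.66 without and 0.66 with the pseudocount. How far the values near 0 can be trusted cannot be said, because the number of reads behind them is unknown.

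**Figure D3:**
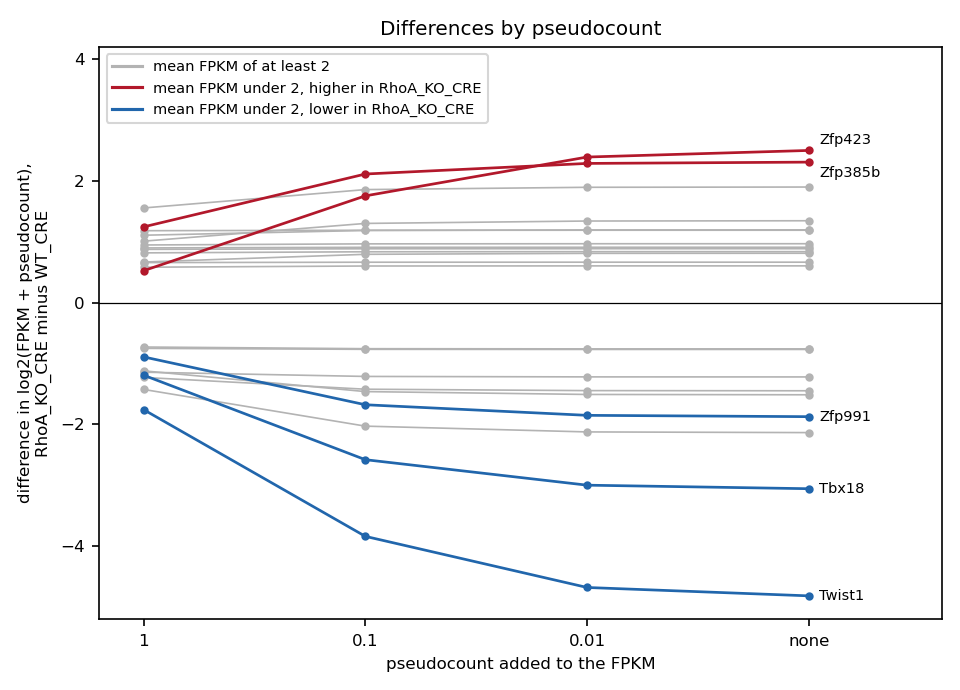
Difference in log2(FPKM + pseudocount), RhoA-deficient minus WT, of the 22 genes at a pseudocount of 1, 0.1, 0.01 and none, with the 5 genes of a mean FPKM under 2 in color and named. *Twist1* runs from -1.76 to -4.82, while most of the gray lines are nearly flat.

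The table holds a small part of these genes. In GENCODE M21, 677 protein-coding genes have symbols that the rule takes, of which the 22 are 3.25%, while 3.59% of all 21924 protein-coding symbols are in the table. The ETS genes of the rule had the largest share, 4 of 12, followed by SOX with 3 of 19. Of 413 ZFP and ZSCAN genes, 3 were in the table, and of the 66 homeobox and T-box genes 1 was. Genes outside the table have no value and were not analysed here. All 22 are protein coding, and they lie on 13 chromosomes. In 3 of them, *Foxq1*, *Sox2* and *Sox4*, the annotated transcript has a single exon, and all 3 were lower.

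Transcription factor genes outside the symbol rule were taken from a list of 137, 1 of which, *Elf1*, the rule also takes, and of which 19 were in the table, 9 higher and 10 lower. Their median difference in log2(FPKM + 1) was -0.75, while it was 0.62 over the 22 genes and 0.65 over the whole table, and a median between separate directions moves with the balance of the directions. Past 2-fold, 3 of the 19 were higher and 7 were lower. The genes named here were picked after their values were seen and are on no list of their own, so nothing is read from their shared direction. Among the higher genes, *Fos* was at 22.3 and 57.7 FPKM, *Fosb* at 12.7 and 24.1 FPKM, *Jun* at 134 and 213 FPKM, and *Atf3* at 75.6 and 134 FPKM. Among the lower genes, *Tcf7* was at 43.0 and 12.0 FPKM, *Lef1* at 11.5 and 2.35 FPKM, and *Myb* at 4.26 and 0.972 FPKM. These lower genes act in lymphocyte development, and beside them the 5 measured lymphocyte markers had lower values too, with a summed FPKM of 56.7 and 15.3, whose part in these values was not tested. *Hopx*, a homeodomain protein of AT1 cells, was at 156 and 87.2 FPKM, while *Mxd1*, a partner of MAX that opposes MYC, was higher by 1.53 in log2(FPKM + 1) and *Tfcp2l1*, a grainyhead-like factor of epithelia, at 7.81 and 23.9 FPKM.

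Signals that act on these families were looked up by list. Of 31 Notch pathway genes, 2 were in the table and both were lower, the glycosyltransferase *Lfng* at 21.9 and 6.91 FPKM and the receptor *Notch4* at 1.48 and 0.291 FPKM, while none of the *Hes* and *Hey* target genes was in it. Of 43 genes of the BMP and TGF-β pathways, 3 were in the table. The ligands *Bmp2*, at 7.25 and 17.0 FPKM, and *Bmp3*, at 4.87 and 9.44 FPKM, were higher, and the ligand *Tgfb2*, at 14.9 and 8.37 FPKM, was lower. None of the 4 *Id* genes, which BMP signals induce, was in the table.

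Markers of 8 other cell types gave the setting for these values. Of these markers, 29 were in the table, 25 lower and 4 higher. The 4 higher were *Ager*, *Clic5*, *Cd14* and *S100a9*, from the AT1, macrophage and granulocyte lists. The AT1 markers were divided, with *Ager* and *Clic5* higher and *Hopx* and *Pdpn* lower. Of the 3 macrophage markers, *Cd14* was higher at 65.8 and 132 FPKM, while *Gpnmb* was lower at 18.6 and 3.13 FPKM and *Lpl* was lower at 11.9 and 4.08 FPKM, so their summed FPKM of 96.4 in WT and 139 in RhoA-deficient cells follows *Cd14*. The single granulocyte marker, *S100a9*, was at 2.69 and 16.5 FPKM.

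**Figure D4:**
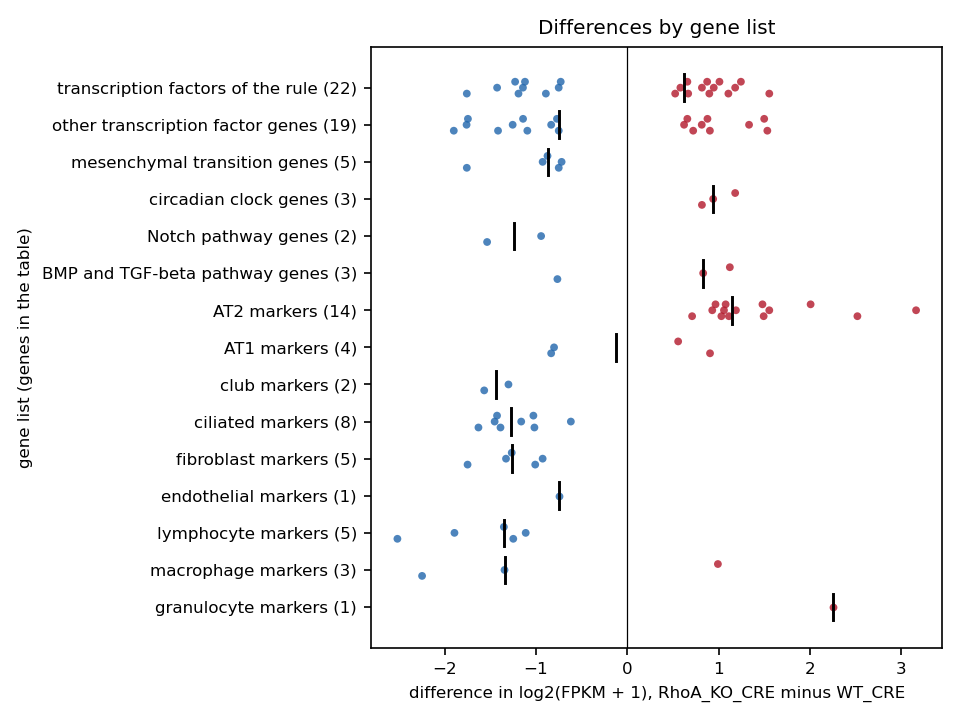
Difference in log2(FPKM + 1), RhoA-deficient minus WT, of each gene in the table by list, with the number of genes in parentheses, red where higher, blue where lower, and a black bar at the median. The 14 AT2 markers all lie above 0 and the ciliated, fibroblast and lymphocyte markers all lie below it, while the 22 transcription factor genes fall on both sides.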

How the data were processed

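RNA of cultured AT2 cells was enriched for mRNA and sequenced from stranded libraries. Per the study's methods, the authors used STAR 2.7.2b with GRCm38 for alignment, Partek Genomic Suite with RefSeq for annotation and Cufflinks for the comparison. The submitters' processing notes list mm9 instead, but all 812 gene identifiers matched GENCODE M21 of GRCm38 (795 with the same version), and 644 loci equal the gene's span there. The deposited FPKM values are means that the authors took over the samples, 1 per genotype. The table's fold changes, test statistics, p-values and q-values are the authors' own comparison and were not used.

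Computed here were FPKM ratios, differences in log2(FPKM + 1), counts past 2-fold without a filter on low values, exon overlaps and matches of promoter letters. A planned limma fit needs values per sample and was not run. Depth is unknown. The members and lists were chosen with earlier results of these data known. By rule, all members were named if there were 60 or fewer, and other genes only from the fixed lists. The genes named from those lists were picked after their values were seen. An item of these lists is not reported here, while the printed counts cover the whole lists. Alternatives were a pseudocount of 0.1, 0.01 or none, a mean FPKM of at least 1 or 5, a fold of 1.5 or 3, and leaving out members with shared exons or longer loci. Scripts ran in Python 3.11.15 with NumPy 2.4.6, pandas 2.3.3 and, for figures, Matplotlib 3.10.9.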

Additional observations from a re-analysis of the deposited data

How the results depend on the processing

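No gene that was kept under an alternative reversed in direction. This holds by construction for all 9 alternatives, since a pseudocount, a filter, a fold or a left-out gene cannot turn a direction. The alternatives without a pseudocount and without some of the members were chosen after seeing the data. The median over the 22 genes was 0.62, and it was 0.73, 0.74 and 0.74 with a pseudocount of 0.1, 0.01 and none. With the same settings the median over the higher genes was 0.97, 0.97 and 0.97 against 0.90, and over the lower genes -1.46, -1.51 and -1.51 against -1.14. With a mean FPKM of at least 1, 20 genes were left, with medians of 0.66 over all, 0.92 over the higher and -1.13 over the lower. With at least 5, 13 genes were left, 9 higher and 4 lower, with medians of 0.82 over all and -0.95 over the lower, and 3 higher and 2 lower past 2-fold. With a pseudocount of 0.1, 0.01 or none, 6 higher and 7 lower genes were past 2-fold, against 5 and 6. On log2(FPKM + 1), past 1.5-fold were 11 of the 13 higher genes and all 9 lower genes, and past 3-fold 0 higher genes and 1 lower gene, *Twist1*. Without the 3 genes that share over 20% of their exonic bases, the median was 0.67 over all and -1.19 over the 6 lower genes. Without the 7 genes whose locus in the table is longer than the gene, 8 were higher, 3 of them past 2-fold, and the medians were 0.52 over all, 0.78 over the higher and -1.12 over the lower. The median of the other transcription factor genes reversed from -0.75 to 0.72 with a mean FPKM of at least 5, which left fewer of the lower genes. Leaving out a replicate was not run. No paired analysis was possible because samples were averaged within each genotype before deposit.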
